A study of Mus musculus with 36 samples.

Results

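Toll-like receptors, the lipopolysaccharide (LPS) co-receptor Cd14 and the adaptor Myd88 were followed by RNA-sequencing in epididymal white adipose tissue (eWAT), the visceral fat beside the epididymis, of 36 male mice. The genes were chosen by name: Tlr1, Tlr2, Tlr4 and Tlr6, whose products sit on the cell surface, Tlr3, Tlr7, Tlr8 and Tlr9, whose products sit in endosomes, Cd14 and Myd88. Each of the 10 symbols matched 1 of the 24750 gene rows through its Ensembl ID, and all 10 passed the filter that left 17852 genes for testing, which asked for 3 or more libraries at 1 or above. Values are CPM, read counts scaled to the depth of each library, that the authors normalized with edgeR.

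WT mice were C57BL/6 mice bred separately from CCL19-KI mice, which are homozygous for Ccl19 knocked into the Adipoq locus without disrupting Adipoq. Ccl19 encodes a chemokine that attracts cells bearing CCR7, and Adipoq encodes the adipocyte hormone adiponectin, so that in this line the chemokine is driven in adipocytes. Mice received a normal diet (ND), a high-fat diet (HFD) with 40% fat or a HFD with 60% fat from 6 weeks of age. In ligatured mice, a silk ligature was tied around the upper second molars at 14 weeks of age to induce periodontitis, and all mice were euthanized 2 weeks later. The 2 genotypes, 3 diets and the presence or absence of a ligature gave 12 groups of 3 mice. Unligatured here means that the label of a mouse names a diet alone, as it does for 18 of the 36. The methods of the study describe mice with and without ligature, but the deposited design text names only mice with periodontitis and the study presents its eWAT sequencing for ligatured mice, so the ligature comparisons rest on the sample labels. Each library came from whole eWAT from which lymph nodes had been removed, and it therefore holds RNA of adipocytes and of every other cell of the tissue.

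Toll-like receptors recognize molecules of microbes and of damaged cells. TLR4 binds bacterial LPS with the help of MD-2 and CD14, TLR2 pairs with TLR1 or TLR6 on bacterial lipopeptides, and the endosomal receptors bind nucleic acids. MYD88 links all of them except TLR3 to kinases that activate NF-κB, and in adipose tissue macrophages are the best-known carriers of these receptors. In bulk tissue, a lower level may come from fewer cells of a type or from less RNA per cell, and the libraries cannot tell these apart.

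The libraries held 11962228 to 21581595 reads, and 1 read was worth 0.0472 to 0.0834 CPM. Before the results, 2 libraries have to be named whose knocked-in gene went against the genotype on their label. Ccl19 was at 19.2 CPM in the library labelled unligatured ND WT replicate 2 and at 0.506 to 4.51 CPM in the other 17 WT libraries. It was at 0.687 CPM in the library labelled unligatured 60% HFD CCL19-KI replicate 3 and at 5.57 to 34.6 CPM in the other 17 CCL19-KI libraries. Gm2564, 69.5% of whose 31-base words also stand in Ccl19 transcripts, was at 41.9 CPM in the first of these libraries, at 0.00 in the second, at 0.00 to 0.16 in the other WT and at 11.6 to 108 in the other CCL19-KI libraries. The labels were kept as deposited, and the comparisons between groups that use these libraries are also given without both of them. The library of unligatured ND WT replicate 1 also stood apart: Lep, which encodes leptin, was at 4217 CPM there and at 128 to 2199 CPM in the other 11 ND libraries, and Cfd, which encodes adipsin, was at 333 CPM there and at 1040 to 10552 CPM in the others. The summed CPM of 8 hepatocyte markers was 10.1 to 16.3 in 6 libraries and 402 to 37356 in the other 30. That of 7 epididymis markers was 291 to 9554 in unligatured CCL19-KI mice fed the 60% HFD. On that diet it was 0.745 to 1.67 in ligatured CCL19-KI and 0.154 to 0.201 in unligatured WT mice. It also varied widely in unligatured ND WT (4.40 to 6321) and ligatured ND CCL19-KI mice (14.3 to 2209). The same held for unligatured 40% HFD WT (0.303 to 1524) and unligatured ND CCL19-KI mice (1.37 to 436). In ligatured WT mice it was 0.569 to 224 under the 40% HFD and 0.324 to 46.4 under the 60% HFD. The part of the epididymis markers in the results was not tested. The summed CPM of 8 adipocyte markers was 4603 to 26749, and that of 11 macrophage markers 854 to 3688, with none of either list at 0 in every library.

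Tlr1 and Tlr6 lie next to each other on chromosome 5 and hold a stretch of coding sequence in common, so that short reads from it cannot be assigned to one of them by sequence. The longest identical run between the coding sequences was 229 bases, at chr5:64925537-64925765 in Tlr1 and chr5:64953828-64954056 in Tlr6 on the minus strand of GRCm38. It is shown because it limits how far the counts of this pair can be told apart, and all of its bases are identical in both genes.
Tlr1 and Tlr6: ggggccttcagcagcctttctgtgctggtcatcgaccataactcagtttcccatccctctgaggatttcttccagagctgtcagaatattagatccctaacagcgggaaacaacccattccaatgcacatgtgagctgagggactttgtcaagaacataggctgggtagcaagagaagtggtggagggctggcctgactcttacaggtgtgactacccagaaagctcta
Of the 31-base words of Tlr1 transcripts, 20% were also found in another gene, 607 of the words in Tlr6, and of those of Tlr6 transcripts, 16.6%. In the other 8 genes at most 0.559% of the words were shared, and the longest identical coding run between Tlr7 and Tlr8, which are neighbours on chromosome X, was only 13 bases. Myd88 overlaps Acaa1a and Slc22a14, and Tlr3 overlaps the antisense gene Gm45542. Acaa1a and Gm45542 lie on the strand opposite to Myd88 and Tlr3, while Slc22a14 lies on the strand of Myd88. Whether strand was used in counting is not given in the sources used here, so the values of Tlr3 and Myd88 carry that uncertainty. Strand cannot separate Myd88 from Slc22a14 or Tlr1 from Tlr6, which also share a strand, so these values are uncertain for that reason.

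Per length of transcript, Cd14 was the most abundant of the 10 genes and Tlr6 the least. The median over 36 libraries was 11.6 normalized CPM per kb of exon for Cd14, 9.08 for Tlr4 and 7.80 for Myd88. Tlr8 and the single-stranded RNA receptor Tlr7 had medians of 5.03 and 4.97 CPM per kb. Tlr2 and the double-stranded RNA receptor Tlr3 had 3.95 and 2.91. The lowest levels were those of Tlr9, a receptor of CpG DNA (1.21 CPM per kb), Tlr1 (0.891) and Tlr6 (0.744). Neighbours in this order were not always apart. The level of Tlr8 was above that of Tlr7 in 17 of 36 libraries, Tlr4 was above Myd88 in 25, Cd14 above Tlr4 in 26 and Tlr9 above Tlr1 in 27. In contrast, Tlr3 was above Tlr9 in 36 of 36 libraries, and Myd88 above Tlr8 in 29.

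**Figure D1:**
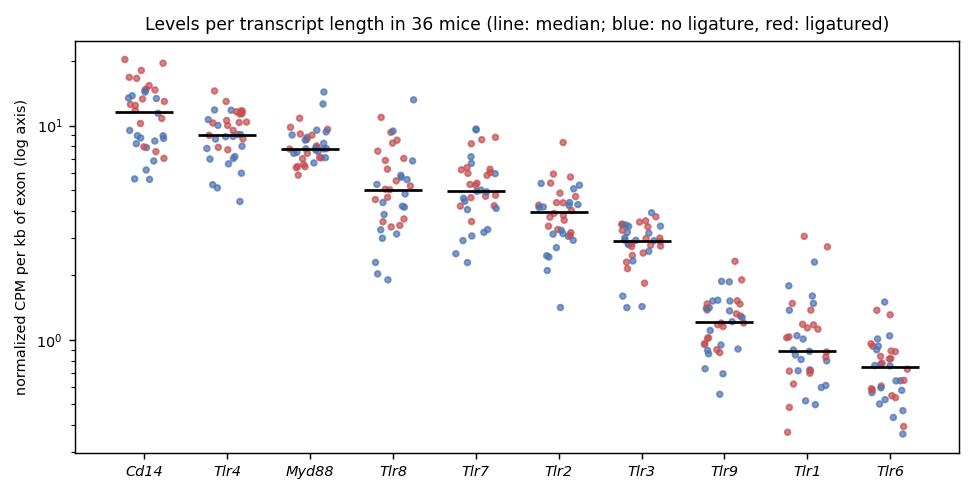
Normalized CPM per kb of exon (y axis, log scale) of the 10 genes in each of 36 mice (points: blue without ligature, red ligatured; line: median). Medians fall from 11.6 for Cd14 to 0.744 for Tlr6, and the points of neighbouring genes overlap.

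The spread among mice differed between the genes. Tlr1 ranged from 1.24 to 10.2 CPM (18 to 164 reads), an 8.21-fold range, and Tlr8 from 6.84 to 47.3 CPM, a 6.92-fold range. Myd88 was the steadiest, from 15.1 to 37.0 CPM, and Tlr3 ranged from 7.37 to 20.4 CPM. Tlr6 and Tlr9 were measured with 23 to 103 and 29 to 128 reads per library, so their values carry more counting error than those of Tlr4, with 392 to 1390 reads.

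**Figure D2:**
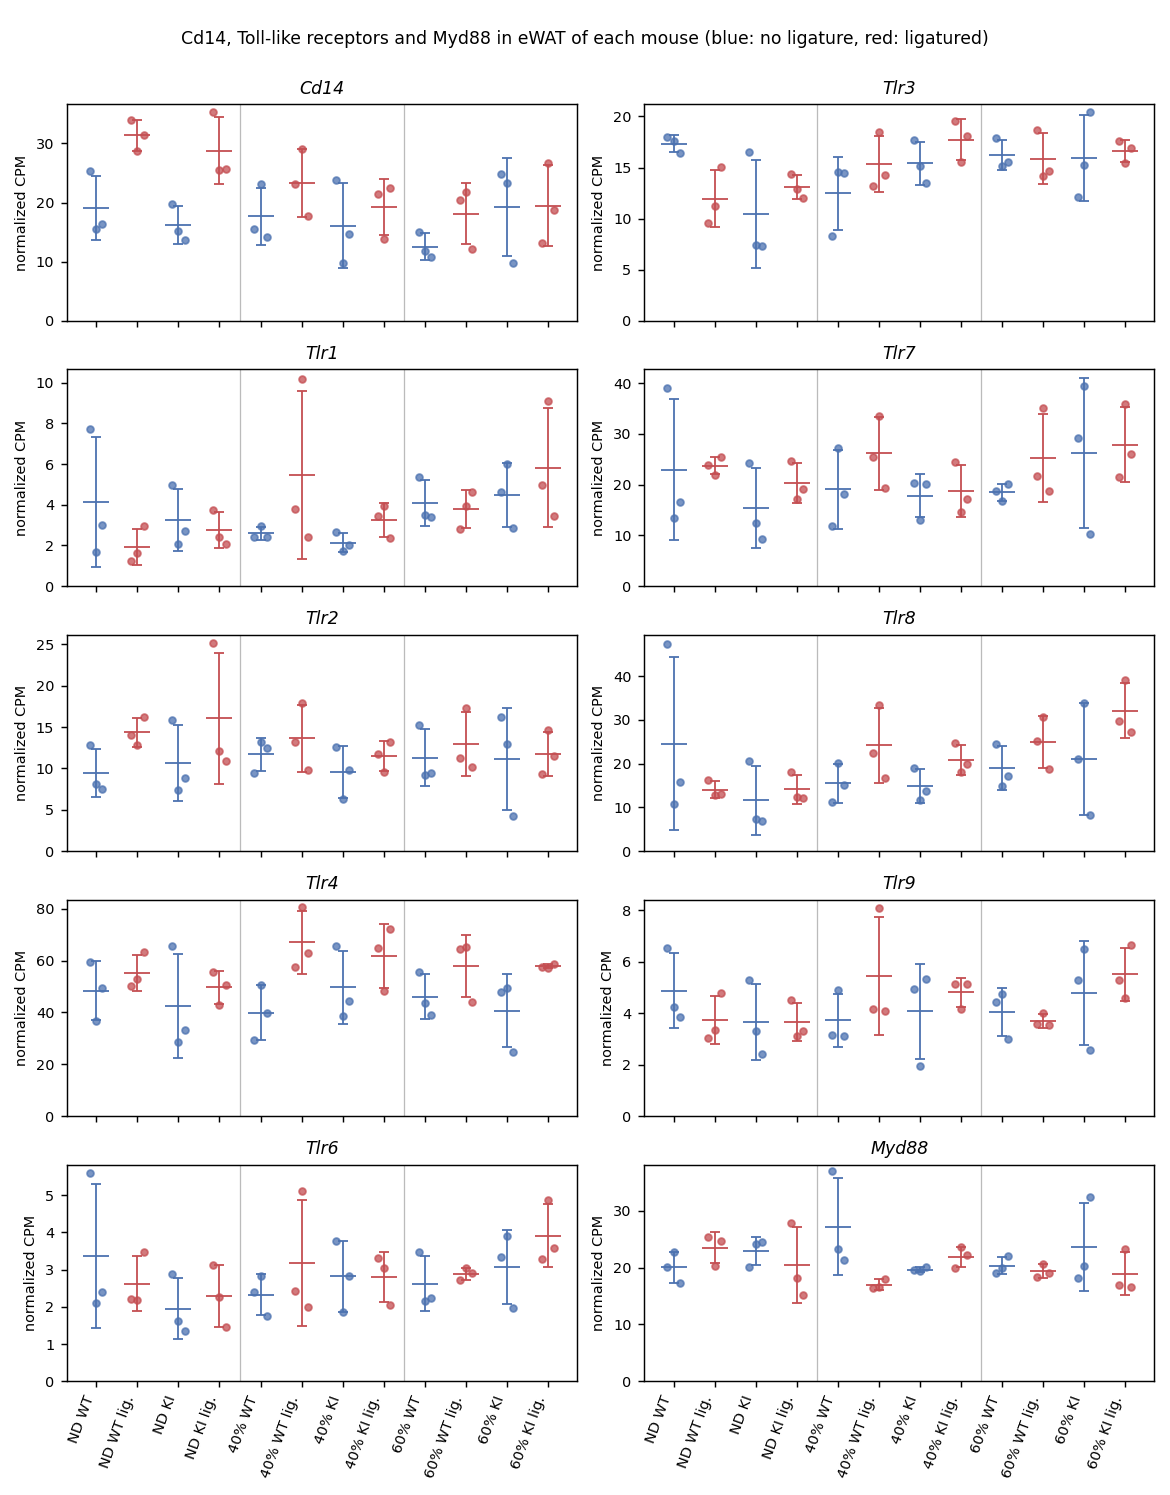
Normalized CPM (y axis, from 0) of each gene in the 3 mice of each of 12 groups (x axis; blue without ligature, red ligatured). Cd14 of ligatured ND mice sits at 25.4 to 35.3, and Tlr8 reaches 47.3 in unligatured ND WT replicate 1.

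The first comparison asked whether a ligature on the molars goes with other levels of these receptors in distant fat. With all libraries, Cd14 and Tlr4 had higher mean levels in ligatured mice in each of the 6 combinations of diet and genotype. These genes act together in sensing LPS, but neither passed the test over all genes. In ND-fed mice, Cd14 was at 33.9, 28.8 and 31.3 CPM in ligatured WT mice and at 25.3, 15.5 and 16.5 CPM in unligatured ones. In CCL19-KI mice on the same diet it was at 35.3, 25.4 and 25.7 CPM with and at 19.8, 15.2 and 13.7 CPM without ligature. In both genotypes the ligatured mice lay above the unligatured mice without overlap. The summed hepatocyte markers also differed here, at 1046 to 8268 CPM in ligatured and 10.2 to 16.3 CPM in unligatured WT mice. In CCL19-KI mice they were at 10.1 to 6119 CPM with and 570 to 24333 CPM without ligature. With their mean log2 value as a covariate, the limma adjusted p of Cd14 in ND-fed CCL19-KI mice was 0.814. The part of these markers in the Cd14 values was not tested otherwise. Under the 40% HFD, Cd14 was at 23.1, 29.1 and 17.7 CPM in ligatured and at 15.5, 23.2 and 14.3 CPM in unligatured WT mice, and at 21.5, 13.8 and 22.4 against 23.9, 9.76 and 14.7 CPM in CCL19-KI mice. Under the 60% HFD, it was at 20.4, 21.8 and 12.2 against 15.1, 11.8 and 10.8 CPM in WT mice and at 13.1, 26.6 and 18.7 against 24.8, 23.3 and 9.72 CPM in CCL19-KI mice. Under either HFD the ligatured and unligatured mice overlapped in both genotypes.

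Over all groups, Cd14 had a lowest, median and highest value of 12.2, 22.7 and 35.3 CPM in 18 ligatured mice and of 9.72, 15.4 and 25.3 CPM in 18 unligatured mice. The averaged difference was 0.45 on the log2(CPM + 1) scale (SE 0.13, 95% interval 0.18 to 0.72, limma adjusted p = 0.111). Tlr4 had 42.9, 57.6 and 80.6 CPM with and 24.6, 44.0 and 65.7 CPM without ligature, a difference of 0.41 (SE 0.11, 95% interval 0.18 to 0.65, limma adjusted p = 0.103). In the combinations, Tlr4 was highest in ligatured WT mice fed the 40% HFD, at 57.5, 80.6 and 63.0 CPM, against 29.4, 50.5 and 39.9 CPM in unligatured mice of that group, with no overlap. In WT mice fed an ND the values of Tlr4 were 50.1, 52.8 and 63.1 with and 59.3, 36.9 and 49.3 CPM without ligature, which overlap. In CCL19-KI mice fed the 60% HFD they were 57.7, 57.1 and 58.7 against 48.1, 49.5 and 24.6 CPM, without overlap.

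**Figure D3:**
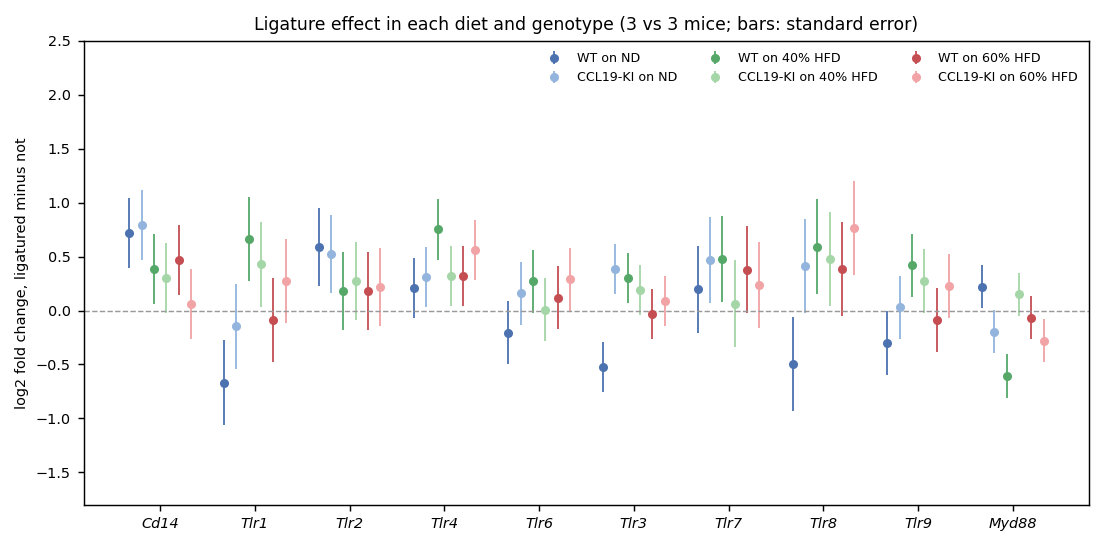
Log2 fold change of ligatured over unligatured mice (y axis; points: estimate from 3 against 3 mice, bars: standard error) for each gene and each combination of diet and genotype (colours). With all libraries, all 6 points lie above 0 for Cd14 (0.06 to 0.79), Tlr4 (0.21 to 0.75), Tlr2 (0.18 to 0.59) and Tlr7 (0.06 to 0.48). Of these genes, this held for Tlr4 alone without the 2 libraries at odds with their genotype.

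Among the other receptors, Tlr2 was at 9.27 to 25.1 CPM (median 12.5) with and 4.27 to 16.2 CPM (median 9.62) without ligature. Its log2 difference was 0.33 (SE 0.15, limma adjusted p = 0.274), higher in 6 of 6 combinations with all libraries. The difference was 0.30 for Tlr7 (SE 0.16, higher in 6 of 6 with all libraries) and 0.36 for Tlr8 (SE 0.18, higher in 5 of 6). The limma adjusted p of Tlr7 and Tlr8 was 0.360 and 0.326. Differences were small for Tlr1 (0.08, SE 0.16), Tlr3 (0.07, SE 0.09), Tlr6 (0.11, SE 0.12) and Tlr9 (0.09, SE 0.12), and Myd88 was the only one with a lower estimate in ligatured mice (-0.13, SE 0.08). Thus 0 of 10 genes passed an adjusted p of 0.05 in limma, against 0.325% of all genes tested. DESeq2 on the recovered reads called Cd14 and Tlr4, with adjusted p of 0.0335 and 0.0316, where it called 4.93% of the genes it gave an adjusted p, and edgeR called 0, with 0.0990 and 0.0996 for these genes and 0.381% of all genes called. The estimate was above 0 for 9 of 10 genes with a median of 0.21, while 44.4% of all genes tested were above 0 with a median of -0.02.

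Most markers of macrophages and adipocytes also had estimates above 0 for ligature. Of 11 macrophage markers, 10 had an estimate above 0 for ligature, with a median log2 difference of 0.29 and 0 called, and their summed CPM was 1509 to 3023 in ligatured and 854 to 3688 in unligatured mice. Of 8 adipocyte markers, 7 were above 0, with a median of 0.44 and 0 called, and a summed CPM of 9765 to 26749 against 4603 to 23976. With the macrophage score of each mouse (the mean log2 value of the 11 markers) as a covariate, the log2 difference was 0.22 for Cd14, 0.21 for Tlr4, 0.06 for Tlr2, 0.01 for Tlr8 and -0.003 for Tlr7. With the adipocyte score (the mean log2 value of the 8 markers) as a covariate, the limma adjusted p of Tlr4 was 0.425. Without the ND-fed mice, that of Cd14 was 0.463. For each of the 2 genes this was the highest of the alternatives. Without the 2 libraries at odds with their genotype, the differences were 0.36 for Cd14 (limma adjusted p = 0.145), 0.33 for Tlr4 (0.128), 0.23 for Tlr2 and -0.03 for Tlr1. Those of Tlr8 and Tlr7 were then 0.20 and 0.16, and none of these genes was called, beside 0.358% of all genes. Leaving out unligatured ND CCL19-KI replicate 1 or unligatured 40% HFD WT replicate 2 brought Tlr4 past the threshold, with adjusted p of 0.0322 and 0.0491.

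**Figure D4:**
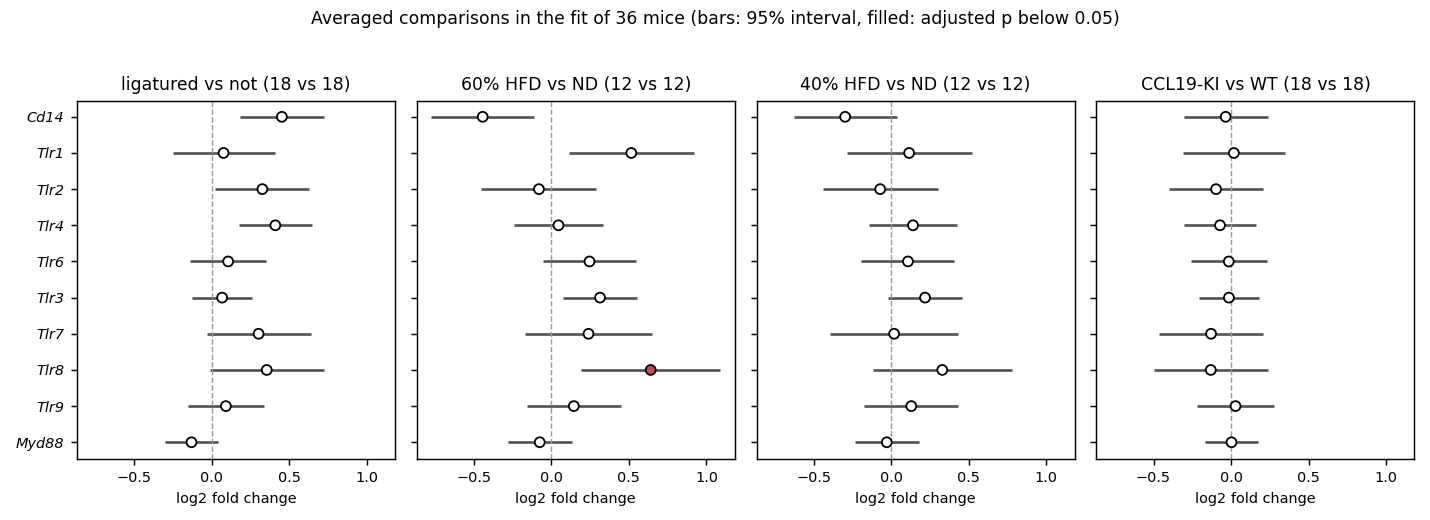
Log2 fold changes of the 10 genes (y axis) in the averaged comparisons (panels; x axis: log2 fold change, points: estimate, bars: 95% interval, filled: adjusted p below 0.05). For ligature, the intervals of Cd14 (0.18 to 0.72) and Tlr4 (0.18 to 0.65) lie above 0, and the only filled point is Tlr8 in the comparison of the 60% HFD with an ND.

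Within single combinations of diet and genotype, where an exact permutation test of 3 mice against 3 cannot go below p = 0.1, no gene passed the adjusted p in limma. On an ND, 6.73% of all genes did for WT and 1.37% for CCL19-KI, against 0.0% in both genotypes under the 40% HFD, and 0.0% for WT and 5.66% for CCL19-KI under the 60% HFD. By the criteria that the study used for differentially expressed genes (an unadjusted p not above 0.05 with a ratio from 1.5 upward or from 0.67 downward), Cd14 was higher in ligatured ND-fed mice, by 0.72 on the log2 scale (SE 0.32) for WT, where 16.4% of all genes passed, and by 0.79 (SE 0.32) for CCL19-KI, where 13.5% passed. In WT mice fed the 40% HFD, Tlr4 was higher (0.75, SE 0.28) and Myd88 lower (-0.61, SE 0.20), with 8.91% of all genes passing. Myd88 was at 16.4, 16.6 and 18.0 CPM with and at 37.0, 23.3 and 21.3 CPM without ligature there, so that replicate 1 was far above its group. Without that mouse, the differences were 0.55 for Tlr4 and -0.37 for Myd88, and 0 of the 10 genes met the criteria. With the adipocyte score as a covariate, the limma adjusted p of both was 0.997. No other gene of the 10 met these criteria for ligature, where the shares of all genes were 0.829% for CCL19-KI under the 40% HFD, 0.527% for WT under the 60% HFD and 18.6% for CCL19-KI under it.

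The groups did not overlap for Tlr2, Tlr3 and Cd14 in ND-fed WT mice, a pattern held by 29.5% of all genes there, and for Cd14 alone in ND-fed CCL19-KI mice (17.1%). They did not overlap for Tlr4 and Myd88 in WT mice fed the 40% HFD (15.5%) and for Tlr4 in CCL19-KI mice fed the 60% HFD (23.3%). With 0 genes apart, the shares of all genes were 8.52% in CCL19-KI mice fed the 40% HFD and 10.5% in WT mice fed the 60% HFD. Tlr3 went the other way from Cd14 in ND-fed WT mice, with 9.58, 11.2 and 15.0 CPM in ligatured and 18.0, 17.6 and 16.4 CPM in unligatured mice.

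Both libraries at odds with their genotype are unligatured, and 2 of these comparisons use one of them. Without them, the log2 difference of Cd14 for ligature in ND-fed WT mice was 0.59 (SE 0.32, limma adjusted p = 0.241) and no longer met the criteria, whereas Tlr1 (-1.05, SE 0.41) and Tlr8 (-0.92, SE 0.41) did, as lower in ligatured mice, beside 18.7% of all genes. That contrast then compares 3 ligatured mice with 2 unligatured ones, one of which is replicate 1 with its low Cfd. In CCL19-KI mice fed the 60% HFD, the difference of Tlr4 was 0.56 with and 0.24 without them, and that of Cd14 was 0.06 with and -0.34 without them. Those of Tlr2 (-0.30) and Tlr7 (-0.31) were also below 0 there without them, as was that of Tlr7 in ND-fed WT mice (-0.10). The higher estimate in 6 of 6 combinations then held for Tlr4 but not for Cd14, Tlr2 or Tlr7.

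Whether the ligature effect differed between diets or genotypes was tested as a difference of effects. By the adjusted p, 0 of 10 genes differed between CCL19-KI and WT mice (0.0056% of all genes called), between the 60% HFD and an ND (0.0%) or between the 40% HFD and an ND (0.0056%). With all libraries, the 1 difference at an unadjusted p below 0.05 in limma was that of Tlr1, with a ligature effect larger by 0.95 under the 40% HFD than under an ND (SE 0.39, adjusted p = 0.417). Tlr1 was at 3.81, 10.2 and 2.41 CPM in ligatured and 2.40, 2.96 and 2.43 CPM in unligatured WT mice fed the 40% HFD. The value of 10.2 CPM in replicate 2 stood far above the others. The summed CPM of 7 B cell markers ran from 9.59 to 123 in ligatured WT mice fed the 40% HFD, and its part in the Tlr1 values was not tested. When both libraries at odds were left out, 0 of 10 were again called by the adjusted p, beside 0.421% of all genes between genotypes, 5.17% for the 60% HFD and 0.597% for the 40% HFD against an ND. Differences at an unadjusted p below 0.05 in limma were then those of Tlr1 (1.15, SE 0.38, adjusted p = 0.124) and Tlr8 (0.79, SE 0.37, adjusted p = 0.297) for the 40% HFD and that of Cd14 (-0.63, SE 0.31, adjusted p = 0.216) for the 60% HFD against an ND.

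The comparison of diets asked how the receptors relate to the fat content of the food. Tlr8 was higher in 60% HFD-fed than in ND-fed mice, and it was the 1 gene of 10 called, where 18.6% of all genes were called. Its lowest, median and highest values were 8.24, 24.9 and 39.2 CPM in 12 mice fed the 60% HFD and 6.84, 13.0 and 47.3 CPM in 12 mice fed an ND. The ranges overlapped, and the highest value of all was that of an ND-fed mouse. The averaged log2 difference was 0.64 (SE 0.22, 95% interval 0.19 to 1.09, limma adjusted p = 0.0418), above 0 in 3 of 4 combinations of genotype and ligature.

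In ligatured CCL19-KI mice, Tlr8 was at 29.7, 39.2 and 27.3 CPM under the 60% HFD and at 18.0, 12.3 and 12.1 CPM under an ND. In ligatured WT mice, it was at 25.2, 30.7 and 18.8 CPM against 16.2, 12.8 and 13.2 CPM. In both, the mice fed the 60% HFD lay above those fed an ND without overlap. Without ligature, Tlr8 was at 24.5, 14.9 and 17.2 CPM in 60% HFD-fed and at 47.3, 10.7 and 15.7 CPM in ND-fed WT mice, and at 21.0, 33.8 and 8.24 against 20.6, 7.29 and 6.84 CPM in CCL19-KI mice. These overlapped, and the lowest value under the 60% HFD, 8.24 CPM, came from the library labelled CCL19-KI that lacked the knocked-in gene. Without both libraries at odds with their genotype, the averaged difference was 0.67 (SE 0.19, limma adjusted p = 0.0231).

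Cd14 went the other way. It was at 9.72, 16.9 and 26.6 CPM (lowest, median and highest) under the 60% HFD and at 13.7, 25.3 and 35.3 CPM under an ND, a log2 difference of -0.44 (SE 0.16, limma adjusted p = 0.0546), which missed the threshold, and of -0.37 (adjusted p = 0.0979) without both libraries at odds. Tlr3 (0.31, SE 0.12, adjusted p = 0.0563) and Tlr1 (0.52, SE 0.20, adjusted p = 0.0638) had estimates above 0 and also missed it. Those of Tlr6 (0.25), Tlr7 (0.24), Tlr9 (0.14), Tlr4 (0.05), Myd88 (-0.08) and Tlr2 (-0.08) were below 2 standard errors. Against an ND, the 40% HFD gave 0 calls of 10, where 9.21% of all genes were called, and estimates from -0.30 for Cd14 to 0.33 for Tlr8. Between the HFDs, 0 of 10 were called beside 0.745% of all genes, with estimates from -0.15 for Cd14 to 0.40 for Tlr1. Leaving out both libraries at odds, 0 of 10 were called in either comparison, beside 7.9% and 1.52% of all genes, with estimates from -0.33 for Cd14 to 0.22 for Tlr8 and from -0.11 for Myd88 to 0.46 for Tlr1. Both comparisons with an ND share the same 12 ND-fed mice.

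The call of Tlr8 was close to the threshold. It held in 8 of 24 fits that left out 1 mouse, where the adjusted p ran from 0.00648 without unligatured ND WT replicate 1 to 0.0863 without unligatured ND WT replicate 2, the library labelled WT that carried the knocked-in gene. The adjusted p was 0.0631 in edgeR and 0.0366 in DESeq2. Of 11 macrophage markers, 10 had estimates above 0 for the 60% HFD against an ND, with a median of 0.19. Of these markers, 2 were called higher and 1 lower, and the summed CPM overlapped, at 977 to 3023 against 854 to 3688. Adgre1, which encodes the macrophage surface protein F4/80, rose by 0.79 and the lysosomal Cd68 by 1.12 on the log2 scale. These 2 examples were chosen after their values were seen, lie above the median of the list and do not stand for it. With the macrophage score as a covariate, the difference was 0.29 for Tlr8 (limma adjusted p = 0.0189), -0.68 for Cd14 (0.000181) and -0.35 for Tlr2 (0.00952). The 8 hepatocyte markers were all called higher under both HFDs, with median log2 differences of 3.15 and 4.04 for the 60% and 40% HFD. Their summed CPM was 10.1 to 24333 in ND-fed, 402 to 37356 in 40% HFD-fed and 11.2 to 35443 in 60% HFD-fed mice. With the hepatocyte score as a covariate, the limma adjusted p was 0.103 for Tlr8 and 0.00689 for Tlr3 (log2 difference 0.53). The share of all genes below the threshold in that fit is not given here, so nothing is read from the value of Tlr3. The part of these markers in the diet results was otherwise not tested.

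Within combinations of genotype and ligature, no gene passed the adjusted p for the 60% HFD against an ND, beside 3.41% of all genes in unligatured WT, 10.2% in unligatured CCL19-KI, 2.57% in ligatured WT and 12.8% in ligatured CCL19-KI mice. By the criteria of the study, Tlr3 was higher in unligatured CCL19-KI mice (0.63, SE 0.23; 23.0% of all genes), Cd14 lower in ligatured WT mice (-0.80, SE 0.32; 11.8%), and Tlr1 (0.81, SE 0.39) and Tlr8 (1.13, SE 0.44) higher in ligatured CCL19-KI mice (22.5%). In unligatured WT mice 0 of 10 met them, beside 12.0% of all genes, while without both libraries at odds Cd14 did, as lower under the 60% HFD (-0.67, SE 0.32, limma adjusted p = 0.320; 10.6% of all genes), and 0 were called by the adjusted p (2.11% of all genes). The diet groups did not overlap for Tlr3, Tlr4, Tlr6, Tlr8 and Tlr9 in ligatured CCL19-KI mice (36.9% of all genes), Tlr8 and Cd14 in ligatured WT mice (35.3%) and Cd14 in unligatured WT mice (24.3%), and overlapped for all 10 in unligatured CCL19-KI mice (18.1%). Without both libraries at odds, unligatured CCL19-KI mice gave 2 calls by the adjusted p in limma, Tlr8 (1.31, SE 0.41, adjusted p = 0.0455) and Tlr7 (1.20, SE 0.37, adjusted p = 0.0462), beside 8.51% of all genes, and the log2 difference of Tlr3 was 0.44. These rest on 2 mice fed the 60% HFD.

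The comparison of genotypes asked whether CCL19 made by adipocytes changes the receptors. Averaged over diets and ligature, no receptor passed the test. By the adjusted p, 0 of 10 genes were called, beside 0.459% of all genes, and 0 had an unadjusted p below 0.05 in limma. The log2 differences ranged from -0.13 for Tlr8 (95% interval -0.50 to 0.24) to 0.03 for Tlr9 (-0.22 to 0.28). That of Cd14 was -0.03 (-0.30 to 0.24) and that of Tlr4 -0.07 (-0.30 to 0.16). Without both libraries at odds, they ranged from -0.11 for Tlr8 to 0.07 for Tlr9, and 7.35% of all genes were called.

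In unligatured ND-fed mice, Tlr3 was lower in CCL19-KI mice, at 16.6, 7.45 and 7.37 CPM against 18.0, 17.6 and 16.4 CPM in WT mice. One CCL19-KI mouse lay within the WT range and the others were far below. The log2 difference was -0.77 (SE 0.23, limma adjusted p = 0.0257), 1 call of 10 beside 16.6% of all genes, and Tlr8 (-0.92, SE 0.44) met only the criteria of the study, which 23.3% of all genes met. The groups overlapped for all 10 genes (28.1% of all genes did not). The contrast includes the library labelled WT that carried the knocked-in gene, in which Tlr3 was at 17.6 and Tlr8 at 10.7 CPM. Without both libraries at odds, Tlr3 (-0.76, SE 0.25, adjusted p = 0.0376) and Tlr8 (-1.34, SE 0.41, adjusted p = 0.0239) were called in limma, beside 19.5% of all genes, with 2 WT mice left. One of these 2, replicate 1, had the highest Tlr8 of all 36 mice (47.3 CPM) and the highest macrophage sum (3688). The Tlr3 call held in 2 of 6 fits that left out 1 mouse (those without replicate 2 of WT or without replicate 1 of CCL19-KI) and was lost with the hepatocyte score as a covariate (adjusted p = 0.683). All 3 WT mice of this group were among the 6 libraries with the lowest hepatocyte sums, and the part of this in the result was not tested otherwise.

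In the other 5 combinations, 0 of 10 genes were called between genotypes by the adjusted p. The shares of all genes called were 0.0056% without ligature under the 40% HFD, 16.8% without ligature under the 60% HFD, and 1.03%, 0.0112% and 0.0112% in ligatured mice fed an ND, the 40% HFD and the 60% HFD. Nor did any gene meet the criteria of the study there, which 2.7%, 23.4%, 8.44%, 1.25% and 1.41% of all genes met. The genotypes did not overlap for Myd88 without ligature (14.2% of all genes) and with ligature (8.97%) under the 40% HFD and for Tlr6 and Tlr9 with ligature under the 60% HFD (11.9%), and overlapped for all 10 genes in the remaining 2 of these 5 combinations (30.7% of all genes apart without ligature under the 60% HFD, 18.9% with ligature on an ND). In unligatured mice fed the 60% HFD, leaving out both libraries at odds gave higher Cd14 (0.90, SE 0.32, limma adjusted p = 0.0533) and Tlr7 (0.84, SE 0.37, adjusted p = 0.110) in CCL19-KI mice by these criteria, beside 26.8% of all genes. Cd14 was at 24.8 and 23.3 CPM in the 2 CCL19-KI mice that remained and at 15.1, 11.8 and 10.8 CPM in WT mice. The genotype effect differed between diets for 0 of 10 genes by the adjusted p, beside 0.476% of all genes for the 60% HFD against an ND and 0.0% for the 40% HFD against an ND. With all libraries, the 1 difference at an unadjusted p below 0.05 in limma was that of Tlr3 between the 40% HFD and an ND (0.57, SE 0.23, adjusted p = 0.347), which was also 0.57 (SE 0.23, adjusted p = 0.191) without both libraries at odds. Without them, 5 more genes had an unadjusted p below 0.05 for the 60% HFD against an ND, all with a higher estimate of CCL19-KI over WT under the 60% HFD. They were Tlr8 (1.11, SE 0.38), Tlr7 (1.01, SE 0.35), Tlr6 (0.78, SE 0.29), Cd14 (0.72, SE 0.31) and Tlr9 (0.68, SE 0.29), with limma adjusted p of 0.110 to 0.163. All 5 met the criteria of the study, beside 16.3% of all genes, and 0 of 10 were called by the adjusted p, beside 0.62% of all genes for this difference and 0.523% for that between the 40% HFD and an ND.

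Across mice, most of the receptors followed the macrophage markers, and Myd88 did not. The Pearson correlation of log2 values with the macrophage score over 36 libraries was 0.910 for Tlr8, 0.908 for Tlr7, 0.821 for Tlr6, 0.757 for Tlr4 and 0.728 for Tlr2. It was 0.704 for Tlr9, 0.673 for Tlr1, 0.607 for Cd14, 0.497 for Tlr3 and -0.287 for Myd88. After the group means were taken out, it was 0.937 for Tlr8, 0.874 for Tlr4, 0.850 for Cd14 and 0.384 for Tlr3. These are descriptions over libraries that share their depth and normalization, and none of the 10 genes is among the markers. With the adipocyte score, the correlation was 0.614 for Tlr4, 0.508 for Tlr3 and -0.478 for Myd88.

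**Figure D5:**
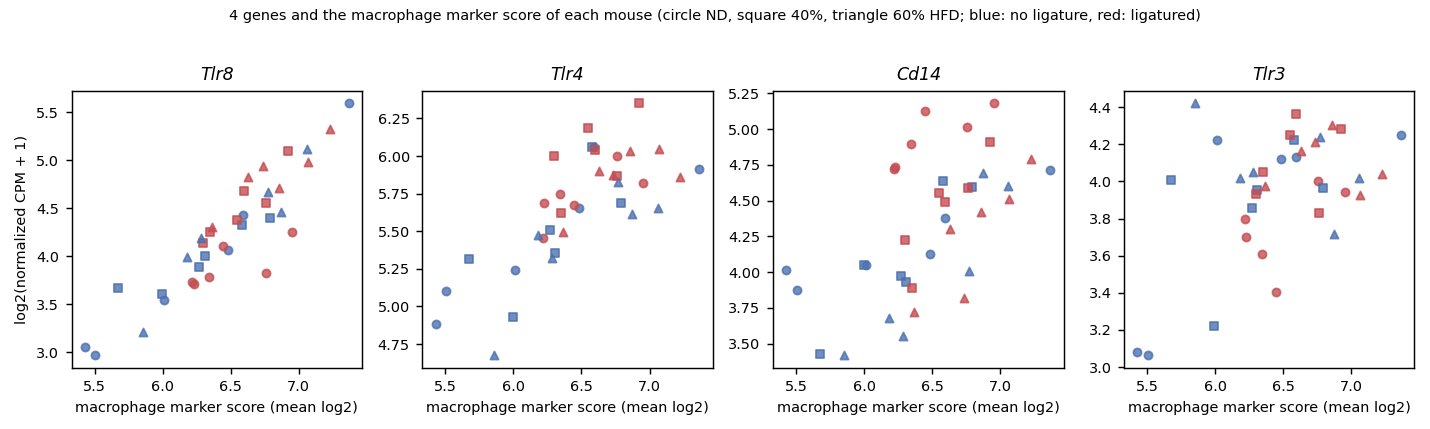
Log2(normalized CPM + 1) of 4 genes (y axis) against the macrophage marker score of each of 36 mice (x axis, mean log2; circle ND, square 40%, triangle 60% HFD; blue without ligature, red ligatured). Tlr8 rises along the score (r = 0.910), while Tlr3 is more scattered (r = 0.497).

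Among the genes themselves, the closest pair was Tlr7 and Tlr8 (r = 0.857, within groups 0.931), followed by Tlr6 and Tlr8 (0.834), Tlr1 and Tlr6 (0.792) and Tlr2 and Cd14 (0.786). The reads of Tlr1 and Tlr6 come in part from the shared sequence printed above, so their likeness is not independent of it. Myd88 was opposed to Tlr4 (r = -0.546) and to Tlr8 (-0.407). Over all tested genes, the closest to Tlr8 were Cybb (r = 0.943), which encodes the phagocyte NADPH oxidase subunit, Adgre1 (0.943) and Nckap1l (0.927). Closest to Tlr7 were the complement gene C1qb (0.910), Ms4a6d (0.903) and the Fc receptor gene Fcgr3 (0.897). Closest to Tlr4 were Cep170 (0.905), Pik3cg (0.889) and the mannose receptor gene Mrc1 (0.874), and to Cd14 Ifi204 (0.888), Axl (0.886) and F630028O10Rik (0.885). Tlr2 was closest to Ifi204 (0.846), Maf (0.836) and Cd86 (0.833), Tlr1 to Cd180 (0.863), Lpxn (0.859) and Irf8 (0.858), and Tlr6 to Plek (0.859), Cd53 (0.858) and Syk (0.857). The closest to Tlr9 were Wdfy4 (0.797), Pik3cg (0.794) and Ikzf1 (0.782). Tlr3 and Myd88 had other neighbours: Efcab14 (0.900), Tmco3 (0.886) and Tmem50b (0.885) for Tlr3, and Fubp3 (0.833), Rela (0.809), which encodes the NF-κB subunit p65, and Mta2 (0.796) for Myd88.

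Since most of the receptor genes move together across mice, their promoters were searched for motifs of factors of myeloid cells and inflammation. RefSeq windows (GRCm38.p6) from 250 bases before to 50 after the start were searched for 7 of the 10 genes, 9 windows in all. No window of Tlr4, Tlr7 or Cd14 was searched, so nothing can be said of motifs in these 3. On both strands, GAGGAAGT, a motif of the myeloid factor PU.1, was found in windows of Tlr1 and Tlr9 and in 3.2% of all 32851 promoters. The interferon-stimulated response element, searched as GAAA repeated with any 2 bases between, was found in windows of Tlr6 (2 overlapping matches) and Myd88 and in 3.44% of all promoters. A canonical κB motif was found in 0 of the 9 windows and in 0.155% of all promoters. The 30 bases around each match are shown 5′ to 3′ on the strand of the gene with the match in capitals, since these are the only motif letters found. A capital run that reads ACTTCCTC or TTTC is the motif on the opposite strand.
Tlr1, chr5:64933562-64933591, minus strand, PU.1: ttaaatgttgGAGGAAGTaggagcttgaat
Tlr9, chr9:106222598-106222627, plus strand, PU.1: tgaaagtgtcACTTCCTCaattctctgaga
Tlr6, chr5:64959259-64959288, minus strand, response element: tattctTTTCTCTTTCACTTTCtgtttgat
Myd88, chr9:119340038-119340067, minus strand, response element: agcttctcgGAAAGCGAAAgaaggaggggc
The match in Tlr1 began 23 bases before the start and that in Tlr9 at base 11 of the transcript, those in Tlr6 began 116 and 110 bases and that in Myd88 40 bases before the start.

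The wider pathway was described by 6 lists: other receptors, co-receptors and trafficking factors, adaptors and kinases, transcription factors, negative regulators, and induced targets. By the adjusted p, 0 genes of any of these lists were called for ligature, for genotype or between the HFDs. For the 60% HFD against an ND, 1 of 4 other receptors, 3 of 9 co-receptors and trafficking factors, 3 of 18 adaptors and kinases, 1 of 11 transcription factors and 4 of 13 tested targets were called higher, and 2 of 14 negative regulators were called lower. Of all genes tested, 10.2% were called higher and 8.4% lower in this comparison, and with lists this short nothing is read from the counts. Another 5 of the 18 targets were not tested, since Ifnb1 had no row and the others did not pass the filter. Lbp, which encodes the plasma protein that hands LPS to CD14, rose most, from a mean of 139 to 299.7 CPM (log2 difference 1.38, SE 0.21, limma adjusted p = 0.000226). Fos, a subunit of AP-1, rose by 1.21, the chemokine gene Ccl2 by 1.07, Tlr13, a receptor of bacterial ribosomal RNA, by 0.92, and Cd180, a relative of Tlr4 on B cells and myeloid cells, by 0.81. The falls were those of Nfkbia, which encodes the NF-κB inhibitor IκBα (-0.44, from 54.8 to 39.6 CPM), and Sarm1, an adaptor that restrains signalling (-0.36), whose mean was below 1 CPM in both.

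Under the 40% HFD against an ND, 2 of 9 co-receptors and trafficking factors, 2 of 18 adaptors and kinases and 1 of 13 targets were called higher and 0 genes of the 6 lists lower, where 5.36% of all genes were called higher and 3.85% lower. Lbp rose by 0.75, the chemokine gene Cxcl1 by 0.57, the kinase gene Irak2 by 0.54, Hsp90b1, which encodes the chaperone of the receptors, by 0.47 and Ikbkg, which encodes NEMO, by 0.38. Lbp is also made by hepatocytes, whose markers rose in the same comparisons (8 of 8 called), and the part of this in its rise was not tested. Lbp was no longer called in this comparison when both libraries at odds were left out, and 1 of 9 co-receptors, 2 of 18 adaptors and 1 of 13 targets were called higher. For the 60% HFD the counts then became 1, 3, 2, 2 and 4 higher in the order given above and 1 negative regulator lower, Nfkbia, and between genotypes Lrrc59, Irak2 and Ripk1 were called lower in CCL19-KI mice, beside 7.35% of all genes. Another 2 genes were chosen as partners of the receptors after their values were seen. Ly96, which encodes MD-2, the partner of TLR4, was at a mean of 3.62 CPM with and 3.62 CPM without ligature, and at 3.82 under the 60% HFD and 3.42 CPM under an ND. Its log2 differences were 0.00 (SE 0.09) and 0.14 (SE 0.11). Unc93b1, which carries the endosomal receptors to their compartment, had differences of 0.22 (SE 0.12) for ligature and 0.28 (SE 0.15) for the 60% HFD, neither called.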

How the data were processed

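Total RNA of eWAT was sequenced from 36 mice as directional, rRNA-depleted, paired-end libraries. According to the authors, reads were trimmed with Trimmomatic 0.38, mapped to transcripts with Bowtie2 within RSEM 1.3.0, counted per gene and normalized with edgeR, so the signal values that the authors deposited are normalized CPM. The methods of the study name mm10 and the submitters' processing notes GRCm39, and the gene IDs were matched here to GENCODE M21 (24626 of 24750 with a symbol). Dividing by the CPM of 1 read gave whole numbers for 100% of the values of each library (tolerance 0.01), which recovers the reads. The table starts at 36 reads over all libraries. A count of 0 reads allows up to 3 reads, which is 0.142 to 0.250 CPM; this covers counting error only.

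Groups came from the sample labels, which name periodontitis for 18 of 36 mice. Values were tested as log2(normalized CPM + 1) with limma 3.58.1 (eBayes with trend, R 4.3.3) in 1 fit of 12 groups, 26 contrasts, with Benjamini-Hochberg adjustment over 17852 genes and a threshold of 0.05. Fold changes are on that scale, which understates changes of low genes. Levels between genes were set per kb of the union of exons. The 36 pairs of replicates differed by more than sampling noise (chi-square per degree of freedom 16.9 to 372). The labels say that samples of a group are separate mice. All 10 genes are named in averaged comparisons; elsewhere those that passed a criterion, of other pathway genes the 5 largest called rises and falls, and the 3 genes with the highest correlation to each. Members and lists were chosen with earlier results of these data known. Alternatives were 14 planned settings besides leaving out each mouse, edgeR 4.0.16 and DESeq2 1.42.0 on the recovered reads among them, and 3 chosen after seeing the data. The script was tested on simulated reads. Figures were made with Python 3.11.15 and matplotlib 3.10.9.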

Additional observations from a re-analysis of the deposited data

How the results depend on the processing

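The 3 mice per group limit the precision. The 12-group model is used for all comparisons, so a mouse left out also moves the spread shared by the others. The weights of the sample quality fit did not converge fully (the fitting routine warned that its tolerance was not reached), and that setting moved more counts of called genes than any other. Fitting only the compared groups gives the same model for the comparisons of ligature, of genotype and of the ligature effect between genotypes averaged over all groups, so it has no value of its own there. Of the log2 differences of the 10 genes, 843 kept their direction and side of the threshold under the alternatives other than leaving out a mouse, 39 passed it only there, 9 no longer passed it and 62 changed direction; when 1 mouse was left out these numbers were 1389, 20, 20 and 95. Of the counts of called genes per comparison, 367 stayed within 1.5 times and 38 did not, against 340 and 32 with 1 mouse left out. Where a result changed, the cause was not tested.

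Counts of the 10 genes called by the adjusted p moved as follows, each with the share of all genes called in the same fit in parentheses. For ligature averaged over diet and genotype, 0 became 3 with sample quality weights (Cd14, Tlr4 and Tlr8; 12.6%), 1 with the hepatocyte score (Tlr4; 1.55%) and 2 in DESeq2 (Cd14 and Tlr4; 4.93%). Over the alternatives the limma adjusted p of Cd14 ran from 0.0145 with weights to 0.463 without the ND-fed mice. That of Tlr4 ran from 0.00536 with weights to 0.425 with the adipocyte score. For ligature in ND-fed WT mice, 0 became 3 with weights (32.8%), 2 with the macrophage score (9.85%) and 1 with the adipocyte score (11.7%). With weights it became 8 for ligature in ND-fed CCL19-KI mice (57.9%) and 1 in those fed the 40% HFD (8.34%). For the averaged 60% HFD against an ND, 1 became 0 without the filter (12.7%), in edgeR (17.4%) and in the compared groups alone (16.6%), 2 with a filter at a mean of 5 (Cd14 and Tlr8; 21.5%), 7 with weights (44%), 3 with the macrophage score (Cd14, Tlr2 and Tlr8; 24.5%) and 2 with the adipocyte score (Tlr3 and Tlr8; 20.5%). For the averaged 40% HFD against an ND, 0 became 4 with weights (26.9%) and 2 with the macrophage score (Cd14 and Tlr8; 13.4%). For the 60% HFD against an ND in unligatured CCL19-KI mice, 0 became 5 with weights (30.3%), 2 with the macrophage score (6.53%), 1 with the adipocyte score (18.5%) and 2 without both libraries at odds (8.51%). In ligatured WT mice 0 became 4 with weights (30%), 1 with the macrophage score (4.14%) and 1 with the adipocyte score (6.01%), and in ligatured CCL19-KI mice 8 (59.8%), 3 (18.3%) and, in the compared groups alone, 1 (11.6%), where the 8 and 3 are with weights and the macrophage score. For CCL19-KI against WT in unligatured ND-fed mice, 1 became 6 with weights (49.5%), 0 with the hepatocyte score (0.846%), with the adipocyte score (0.571%) and in the compared groups alone (0%), and 2 without both libraries at odds (19.5%). In ligatured ND-fed mice 0 became 1 with weights (42.3%). With weights the difference of the ligature effect gave 1 in place of 0 between genotypes (8.5%) and between the 40% HFD and an ND (14.1%), and that of the genotype effect gave 5 between the 60% HFD and an ND (34.2%) and 1 between the 40% HFD and an ND (18.8%).

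Replicate numbers did not pair the mice. The median correlation of deviations from the group means was -0.0153 over 198 pairs of the same number (73 above 0.1) and 0.0172 over 396 pairs of different numbers (151 above 0.1). With the replicate number as a block, 2 genes in place of 1 were called for the averaged 60% HFD against an ND (Cd14, adjusted p = 0.0393, and Tlr8, 0.0266, limma; 18.5% of all genes), and the count moved in no other comparison.

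The log2 difference changed direction in these cases, all in averaged comparisons unless a group is named. With the macrophage score as a covariate, it was -0.169 for Tlr1, -0.00415 for Tlr3, -0.0892 for Tlr6, -0.00295 for Tlr7 and -0.0871 for Tlr9 for ligature, -0.161 for Tlr4, -0.0711 for Tlr7 and -0.0374 for Tlr9 in the 60% HFD against an ND, -0.0474 for Tlr7 in the 40% HFD against an ND, -0.0186 for Tlr6, -0.0237 for Tlr7 and -0.128 for Tlr9 in the 60% against the 40% HFD, 0.0403 for Tlr2, 0.0227 for Tlr3, 0.0319 for Tlr4, 0.0849 for Tlr6, 0.0267 for Tlr7, 0.0448 for Tlr8, 0.0819 for Cd14 and -0.0143 for Myd88 in CCL19-KI against WT, and 0.000158 for Tlr8 in CCL19-KI against WT in unligatured ND-fed mice. Without both libraries at odds with their genotype, it was -0.0254 for Tlr1 for ligature, 0.029 for Tlr2 in the 60% HFD against an ND, -0.0549 for Tlr7 in the 40% HFD against an ND, 0.12 for Tlr2 in the 60% against the 40% HFD, and -0.0065 for Tlr1, 0.0126 for Cd14 and -0.0225 for Myd88 in CCL19-KI against WT. With the adipocyte score, it was -0.096 for Tlr3 for ligature, 0.00904 for Tlr2 and 0.0487 for Tlr4 in the 60% against the 40% HFD, and -0.0422 for Tlr1, 0.126 for Tlr3, 0.0525 for Tlr4 and -0.0853 for Myd88 in CCL19-KI against WT. With sample quality weights, it was -0.028 for Tlr9 for ligature, 0.102 for Tlr2 in the 60% HFD against an ND, 0.125 for Tlr2 in the 40% HFD against an ND, and 0.0707 for Tlr6 in CCL19-KI against WT. With quantile normalization, it was -0.0679 for Tlr4 in the 60% HFD against an ND, -0.0137 for Tlr7 in the 40% HFD against an ND, -0.033 for Tlr9 in the 60% against the 40% HFD, and -0.0843 for Tlr1, -0.0575 for Tlr9 and 0.0111 for Cd14 in CCL19-KI against WT. In edgeR, it was -0.00833 for Tlr7 in the 40% HFD against an ND, 0.0308 for Tlr2 and -0.00293 for Tlr9 in the 60% against the 40% HFD, and -0.0183 for Tlr1 in CCL19-KI against WT. In DESeq2, it was -0.00201 for Tlr7 in the 40% HFD against an ND, 0.0252 for Tlr2 and -0.0139 for Tlr9 in the 60% against the 40% HFD, and -0.00408 for Tlr1, 0.0102 for Tlr3 and 0.00706 for Cd14 in CCL19-KI against WT. With a pseudocount of 5, it was 0.000912 for Tlr2 in the 60% against the 40% HFD. With the hepatocyte score, it was -0.0164 for Tlr9 in the 60% against the 40% HFD. Without the ND-fed mice, it was -0.0261 for Tlr1, 0.136 for Tlr3, 0.145 for Tlr6, 0.035 for Tlr8 and 0.0325 for Cd14 in CCL19-KI against WT.

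With 1 mouse left out in turn, the number of called genes ran from 0 to 1 for ligature averaged over diet and genotype, for ligature in ND-fed CCL19-KI mice, for the averaged 40% HFD against an ND and for the difference of the genotype effect between the 40% HFD and an ND. It ran from 0 to 3 for the averaged 60% HFD against an ND, and from 0 to 2 for that diet in unligatured CCL19-KI mice and for CCL19-KI against WT in unligatured ND-fed mice. The highest counts came without unligatured ND CCL19-KI replicate 1, equalled by ligatured ND CCL19-KI replicate 1 for the averaged 60% HFD against an ND, by unligatured ND WT replicate 2 for CCL19-KI against WT and by unligatured 40% HFD WT replicate 2 for averaged ligature. The count of the averaged 60% HFD against an ND fell to 0 in 12 of 24 such fits, among them that without unligatured ND WT replicate 2, and that of CCL19-KI against WT without unligatured ND WT replicate 1 or 3 or CCL19-KI replicate 2 or 3. The log2 differences that changed direction had the following ranges. For ligature, it ran from -0.00427 to 0.156 for Tlr1. For the 60% HFD against an ND, it ran from -0.164 to 0.0491 for Tlr2 and -0.0127 to 0.134 for Tlr4. For the 40% HFD against an ND, it ran from -0.00702 to 0.233 for Tlr1, -0.124 to 0.0176 for Tlr2, -0.0549 to 0.13 for Tlr7 and -0.0876 to 0.0307 for Myd88. For the 60% against the 40% HFD, it ran from -0.0929 to 0.12 for Tlr2, -0.073 to 0.0944 for Tlr9 and -0.107 to 0.0123 for Myd88. For CCL19-KI against WT, it ran from -0.0455 to 0.0997 for Tlr1, -0.073 to 0.0161 for Tlr3, -0.0505 to 0.0419 for Tlr6, -0.0109 to 0.0876 for Tlr9, -0.0868 to 0.0333 for Cd14 and -0.0376 to 0.042 for Myd88. The end of the range past 0 came without ligatured 40% HFD WT replicate 2 for Tlr1 in the comparisons of ligature and of the 40% HFD with an ND; unligatured 60% HFD CCL19-KI replicate 3 for Tlr2 in both comparisons of the 60% HFD and for Cd14 and the low end of Myd88 between genotypes; ligatured ND CCL19-KI replicate 1 for Tlr2 and Myd88 in the 40% HFD against an ND; and unligatured ND WT replicate 2 for Tlr7 in that comparison and Tlr1 between genotypes. It came without unligatured ND CCL19-KI replicate 2 for Tlr4, replicate 3 of that group for Tlr3, its replicate 1 for Tlr9 between genotypes, unligatured ND WT replicate 1 for Tlr6, unligatured 40% HFD CCL19-KI replicate 2 for Tlr9 in the 60% against the 40% HFD, and unligatured 40% HFD WT replicate 1 for Myd88 there.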
